A study of Mus musculus with 4 samples.

Results

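PU.1 (Spi1), Spi-B (Spib), the interferon regulatory factors Irf4, Irf8 and Irf5, the repressor Gfi1 and the inhibitors of DNA binding Id1, Id2 and Id3 were followed in cultured mouse bone marrow cells. The members were the 9 named genes, taken as every probe set annotated to exactly 1 of these symbols, which gave 14 probe sets among 20393 with a single symbol (12394 genes in all). The marrow donors were Mll-AF4stop knock-in mice, in which a stop cassette is meant to hold the fusion gene off until Cre recombinase removes it. The mice were given 5-FU (fluorouracil), which depletes dividing blood cells. After 5 days the marrow was infected with a Cre-GFP retrovirus or, for the control, with a GFP retrovirus. GFP+ cells were sorted 2 days later and grown for 14 days with cytokines for lymphoid progenitors. All 4 arrays thus shared the knock-in allele, the drug, the infection, the sort and the culture. The sample labels call the control a GFP virus while the design text of the series calls it MIG-Cre, and the wording of the samples is used here. Were Cre present in the control as well, the groups would not set an activated fusion against a silent one, and otherwise Cre itself and the fusion cannot be told apart. Each group had 2 arrays, called Cre-GFP 1 and 2 and control 1 and 2. The labels name neither the age of the mice nor separate mice or cultures for the arrays of a group, so the spread behind each p-value could be technical alone.

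PU.1 and Spi-B are closely related Ets-family activators. PU.1 is required for early myeloid and lymphoid development, and Spi-B acts in B cells and plasmacytoid dendritic cells. Irf4 and Irf8 bind DNA poorly alone and are recruited by PU.1 or Spi-B to composite Ets-IRF elements, such as those of the immunoglobulin light chain enhancers. Gfi1 is a zinc finger repressor that opposes PU.1 in granulocyte fate. Id proteins lack a DNA-binding region and hold E proteins such as E2A (Tcf3) away from DNA, and E2A is needed for B cell development.

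In the Cre-GFP arrays Spib and Id3 stood lower than in the controls, Gfi1 and Id2 leaned the same way, and Spi1, Irf4, Irf8 and Id1 overlapped between the groups. Spib was 4.80-fold lower and Id3 1.72-fold lower. Of the 14 probe sets, 12 had a lower mean in Cre-GFP, against 10068 of all 20393. With 1 probe set per gene, 7 of the 9 members were lower, against 49.9% of all genes. No member probe set passed in limma after adjustment over all 20393 probe sets (smallest adjusted p = 0.73), and no other probe set passed (0 called, or 0% of those tested). At an unadjusted p under 0.05, 2 of the 14 passed, both lower in Cre-GFP, against 976 or 4.79% of all probe sets (2.42% in that direction). In 6 of the 14 both Cre-GFP arrays lay below both control arrays, against 14.6% of all probe sets, and in 1 both lay above, against 15.4%. These probe sets share genes (3 for Id2 and 2 each for Irf4, Irf5 and Irf8), so they are not independent.

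**Figure D1:**
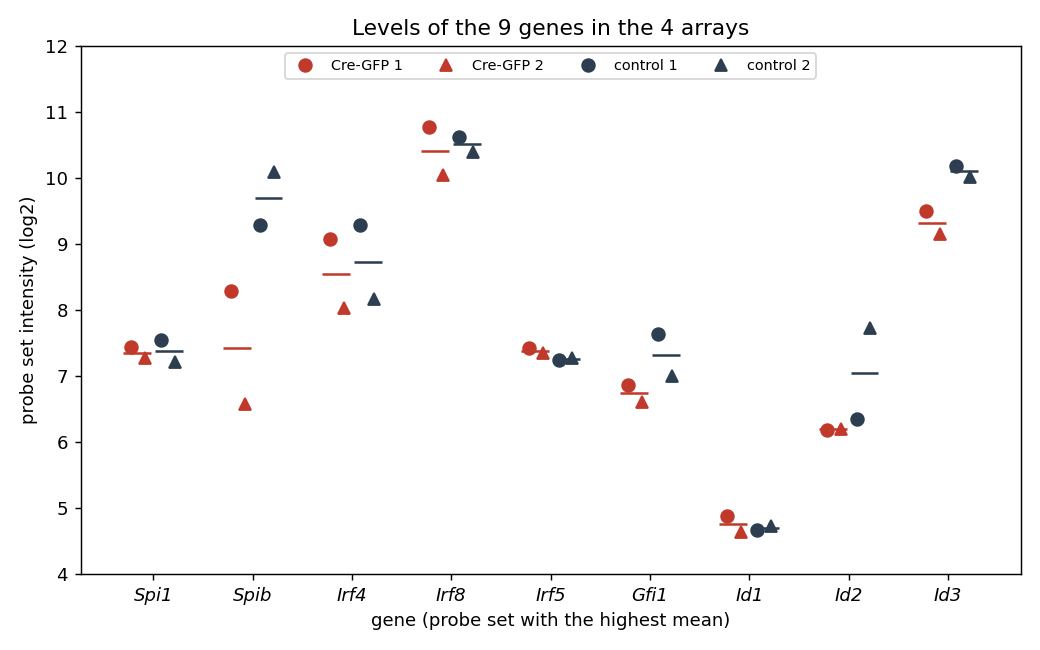
The vertical axis gives the log2 probe set intensity of each of the 9 genes, on the probe set with the highest mean. Red marks are Cre-GFP arrays, dark marks are control arrays, circles are replicate 1, triangles are replicate 2 and bars are group means. Spib (8.28 and 6.58 against 9.29 and 10.10) and Id3 (9.50 and 9.15 against 10.19 and 10.02) are separated by group, while Irf4 is split by replicate number. Heights of different genes are not comparable.

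Promoter sequences are shown for Spib and Id3, the members with the smallest p, and for Irf4, a partner factor whose groups overlapped. They are RefSeq windows of 300 bases (250 before the start site and 50 after it) on GRCm38.p6, and 7 of the 9 members had a window. Capitals mark the Ets core, written as GGAA on either strand. Spib lies at chr7:44532022-44532321 on the minus strand, Id3 at chr4:136143572-136143871 on the plus strand and Irf4 at chr13:30748983-30749282 on the plus strand.
Spib: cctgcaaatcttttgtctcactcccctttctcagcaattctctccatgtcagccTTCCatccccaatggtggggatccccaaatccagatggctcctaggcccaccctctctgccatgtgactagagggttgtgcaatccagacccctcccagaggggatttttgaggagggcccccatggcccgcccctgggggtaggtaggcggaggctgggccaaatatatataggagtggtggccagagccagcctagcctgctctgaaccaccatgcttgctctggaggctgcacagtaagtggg
Id3: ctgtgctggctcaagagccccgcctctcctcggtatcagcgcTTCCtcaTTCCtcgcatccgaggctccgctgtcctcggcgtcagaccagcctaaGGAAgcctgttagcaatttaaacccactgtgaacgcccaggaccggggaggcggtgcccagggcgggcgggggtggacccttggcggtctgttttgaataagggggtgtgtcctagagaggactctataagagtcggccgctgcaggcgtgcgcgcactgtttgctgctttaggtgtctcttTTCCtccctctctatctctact
Irf4: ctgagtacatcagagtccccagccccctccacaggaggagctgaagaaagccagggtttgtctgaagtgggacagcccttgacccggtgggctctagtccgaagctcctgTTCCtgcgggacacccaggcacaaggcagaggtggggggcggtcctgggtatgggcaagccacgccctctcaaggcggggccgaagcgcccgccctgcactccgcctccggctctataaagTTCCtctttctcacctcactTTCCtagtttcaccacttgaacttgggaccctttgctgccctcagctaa
The Spib window holds 1 Ets core, that of Id3 holds 4 and that of Irf4 holds 3, while 96% of 32851 mouse promoter windows hold at least 1 and the median is 3. The composite Ets-IRF element, searched as GGAA and GAAA with any 2 bases between them, was found in none of the 9 member windows (Gfi1 and Irf8 have more than 1 window), and in 2.72% of all windows. The E-box CANNTG, the site read by E proteins, occurs 2 times in the Spib window, 1 time in that of Irf4 and not in that of Id3, against 72.3% of all windows. All motifs were searched on both strands, and a match is a description of letters, not a bound site.

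Spib (probe set 1460407_at) had a linear intensity of 312 and 95.7 in Cre-GFP 1 and 2 and of 628 and 1094 in control 1 and 2. Both Cre-GFP arrays lay below both controls, and the spread within Cre-GFP was wide, since Cre-GFP 1 read 1.70 above Cre-GFP 2 on the log2 scale. The log2 difference was −2.26 ± 0.57 (SE, n = 2 per group), with a 95% interval from −3.67 to −0.86 (adjusted p = 0.73 in limma). Without Cre-GFP 2 the difference was −1.41, and without Cre-GFP 1 it was −3.12.

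Spi1, measured on 1 probe set (1418747_at), had log2 values of 7.44 and 7.27 in Cre-GFP, with 7.54 and 7.22 in control. The 2 control values enclosed both Cre-GFP values. The difference was −0.03 ± 0.18, with an interval from −0.46 to 0.41 (adjusted p = 1 in limma), so changes of PU.1 transcript within these bounds could not be told from none. Set within each array, Spib minus Spi1 was 0.85 and −0.69 in Cre-GFP against 1.75 and 2.88 in control, a difference of differences of −2.24 that kept its sign without any single array. An exact two-sided permutation test over the 4 arrays gave p = 0.33, the smallest that 2 against 2 allows (adjusted p = 0.99 over the 3 pairs of members compared this way).

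Among the IRF partners, Irf4, a factor of pre-B cells, plasma cells and dendritic cells, was measured on 1421173_at at 9.08 and 8.02 in Cre-GFP, with 9.29 and 8.16 in control. Replicate 1 was higher than replicate 2 in both groups, by 1.05 in Cre-GFP and 1.13 in control, and the groups overlapped. The difference between groups was −0.18 ± 0.48 (adjusted p = 1 in limma). It turned to 0.35 without Cre-GFP 2 and to 0.39 without control 1. A second Irf4 probe set (1421174_at) read between 5.30 and 5.44 in all 4 arrays and differed by −0.06 ± 0.11. Replicate 1 was again above replicate 2 in both groups, by 0.096 in Cre-GFP and 0.071 in control.

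Irf8, which directs monocyte and dendritic cell fate and also acts in B cells, was measured on a pair of probe sets. On 1448452_at the Cre-GFP arrays stood at 10.77 and 10.05 and the controls at 10.62 and 10.40. On 1416714_at the values were 10.61 and 9.58 against 10.45 and 10.32. On both, Cre-GFP 1 was the highest array and Cre-GFP 2 the lowest, so the controls lay between them. The differences were −0.10 ± 0.27 and −0.29 ± 0.34, and without Cre-GFP 2 they turned to 0.26 and 0.22. The pair Irf4 minus Irf8 differed by −0.08 between the groups (exact permutation p = 1).

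The Irf5 probe sets disagreed. Irf5 acts downstream of Toll-like receptors in myeloid and B cells. On 1449678_at Cre-GFP stood at 7.43 and 7.35 and control at 7.25 and 7.27, a difference of 0.13 ± 0.14. On 1460231_at Cre-GFP stood at 6.28 and 6.25 and control at 6.45 and 6.84, which gave −0.38 ± 0.17 (adjusted p = 1 in limma for both), or −0.18 without control 2 and −0.58 without control 1. Each separated the groups, in opposite directions, and neither passed, so no direction can be given for Irf5.

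**Figure D2:**
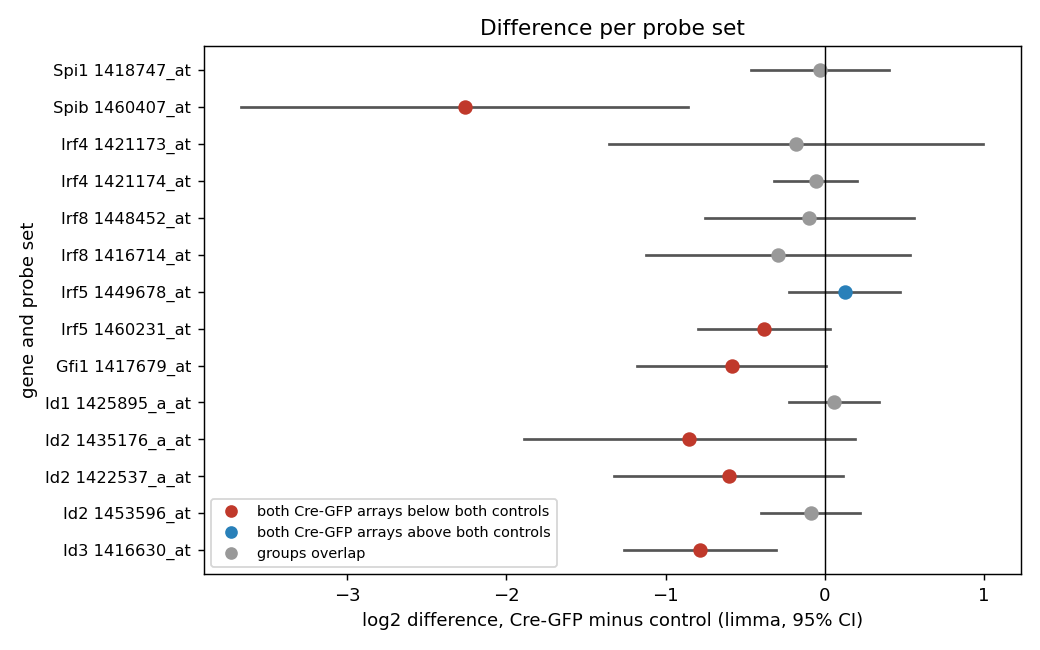
The horizontal axis gives the log2 difference, Cre-GFP minus control, of each of the 14 probe sets, with limma's 95% confidence interval as a line. The intervals of Spib (−3.67 to −0.86) and Id3 (−1.26 to −0.30) lie below 0, and the other 12 include it.

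Gfi1 (1417679_at) stood at 6.87 and 6.61 in Cre-GFP, and at 7.64 and 7.004 in control. Both Cre-GFP arrays were below both controls, with Cre-GFP 1 and control 2 only a little apart. The difference was −0.58 ± 0.24, with an interval from −1.18 to 0.01 (adjusted p = 1 in limma). The difference was −0.26 without control 1 and −0.90 without control 2.

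Id3, which restrains E proteins in developing lymphocytes, was measured on 1416630_at. It had a linear intensity of 724 and 567 in Cre-GFP and of 1167 and 1039 in control. The arrays of each group lay close together, and the groups did not overlap. The log2 difference was −0.78 ± 0.19, with an interval from −1.26 to −0.30 (adjusted p = 0.73 in limma). With any 1 array left out, it ranged from −0.96 to −0.61.

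Id2, which restrains E proteins in NK, innate lymphoid and dendritic cells, was measured on 3 probe sets. On 1435176_a_at Cre-GFP stood at 6.19 and 6.20, and control at 6.35 and 7.73. Control 2 stood apart, and control 1 was close to the Cre-GFP arrays. The same order was seen on 1422537_a_at, with 5.11 and 5.23 against 5.31 and 6.24. Their differences were −0.85 ± 0.42 and −0.60 ± 0.29 (adjusted p = 1 in limma for both), but −0.16 and −0.14 without control 2. Without control 1 they were −1.54 and −1.07. The third probe set (1453596_at) read 4.69 to 4.98, of which 2 arrays were under their 20th percentile, and differed by −0.09 ± 0.13. Id2 minus Id3 differed by −0.07 between the groups (exact permutation p = 1).

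Id1 (1425895_a_at) stood at 4.88 and 4.64 in Cre-GFP, with 4.67 and 4.73 in control, and 2 of these 4 values were under their array's 20th percentile. At such low signal the summary compresses differences, and the difference of 0.06 ± 0.12 says little about the transcript.

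**Figure D3:**
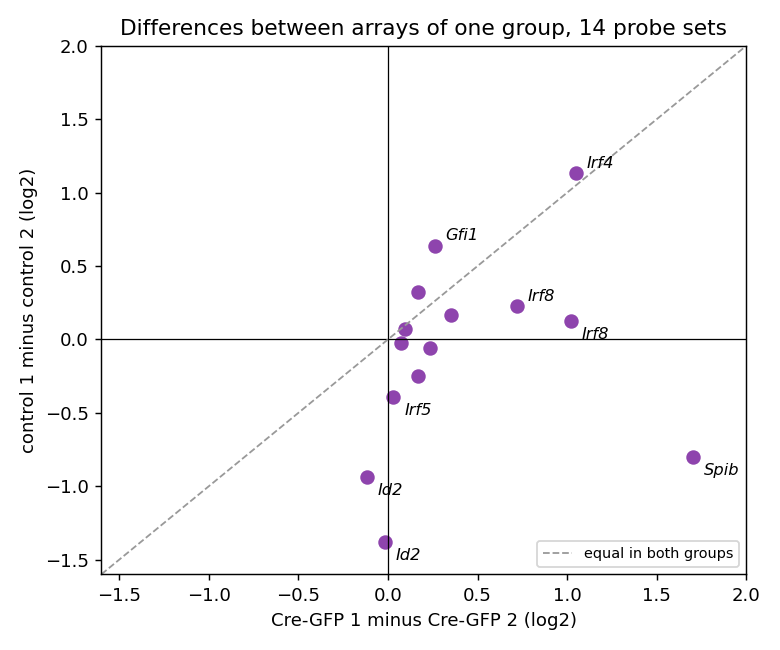
Each point is 1 of the 14 probe sets, with Cre-GFP 1 minus Cre-GFP 2 on the horizontal axis and control 1 minus control 2 on the vertical axis, both in log2 units. Irf4 lies near the dashed line of equal differences (1.05 and 1.13), Spib far from it (1.70 and −0.80), and Id2 along the vertical axis (−0.02 and −1.38).

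The 5 probe sets of other genes whose centred values over the 4 arrays lay nearest to those of Spib (Euclidean distance, 10196 probe sets with a mean at or above the median) were, in order, those of Ifi27l2a, Cd79b, Otub2, Ifi209 and Mycn, at distances of 0.60 to 0.86. Ifi27l2a and Ifi209 belong to interferon-inducible families, Cd79b is a signalling chain of the B cell receptor, and Mycn is a Myc family factor. Cd79b stood at 9.72 and 8.60 in Cre-GFP, with 10.46 and 11.27 in control, in the same order of arrays as Spib. Mycn stood at 11.53 and 10.02, with 13.63 and 13.49 in control, which gave −2.79 ± 0.46 on this probe set. Averaged over all probe sets of Mycn, the difference was −1.17. The nearest to Spi1 were probe sets of Gapdhs, Tnpo1, Mettl17, Hexim1 and Agpat1, at distances of 0.01 to 0.02, and their differences between the groups lay between −0.04 and −0.01. These probe sets were picked for nearness, so their likeness to Spib or Spi1 in array values and group difference follows from that choice. The number of arrays is too small for a correlation.

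Partner factors of the members lay on both sides of 0. For each list below, the probe set with the highest mean stood for its gene. Over all 12394 genes the median difference was 0.00 on this scale, 49.9% were lower in Cre-GFP and 4.56% had an unadjusted p under 0.05. No gene of any list passed in limma over all probe sets. Of 22 measured Ets-family genes outside PU.1 and Spi-B, 11 were lower and 11 higher, with a median of −0.01 (−0.09 without Cre-GFP 1). Ets2 had the smallest p there (0.53 ± 0.18, or 0.30 without control 2), with Elf2 at 0.40 ± 0.23 (0.12 without Cre-GFP 1) and Elf4 at 0.24 ± 0.15. The 6 other measured genes of the IRF list were split 3 and 3, with a median of 0.02 (0.22 without Cre-GFP 2). Irf1 differed by −0.28 ± 0.21 (−0.069 without control 2), Irf2bp1, a corepressor of Irf2, by 0.23 ± 0.18 (0.047 without Cre-GFP 1) and Irf9 by −0.18 ± 0.14.

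E proteins and their basic helix-loop-helix partners had 7 of 13 measured genes lower and a median of 0.00 (0.13 without Cre-GFP 2). Tal1, which pairs with E proteins in early blood cells, differed by 0.28 ± 0.09 at values of which 2 were under the 20th percentile. Hes1, a Notch target, differed by 0.35 ± 0.17 (0.21 without control 2) and Lyl1 by 0.23 ± 0.20 (0.027 without Cre-GFP 1). The E2A gene Tcf3 differed by −0.23 ± 0.28 (0.13 without Cre-GFP 2) and Tcf4 by 0.03 ± 0.18, both named after their values were seen. Of the 13 relatives and corepressors of Gfi1, 5 were lower, with a median of 0.04 (−0.04 without Cre-GFP 1). Ajuba had the smallest p (0.59 ± 0.22, or 0.29 without control 2), and the demethylase Kdm1a and the methyltransferase Ehmt2 differed by −0.26 ± 0.19 (−0.095 without control 1) and 0.24 ± 0.17 (0.15 without Cre-GFP 1). Another Ehmt2 probe set differed by −0.12, the other way, and the mean over the Ehmt2 probe sets by 0.057.

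Genes listed as bound by PU.1 or Spi-B were taken for B cells and for myeloid cells, with Btk in both lists. Binding was not measured in these arrays. Of 25 measured B cell genes, 23 were lower in Cre-GFP (92% against 49.9% of all genes), 14 had groups that did not overlap, all lower (against 30% of genes in either direction), and 7 had an unadjusted p under 0.05, again lower (2.38% of all genes). The median was −0.24, or −0.52 without Cre-GFP 1 and −0.44 without control 1. Fcgr2b, the inhibitory Fc receptor, stood at 8.30 and 9.02 in Cre-GFP, with 10.79 and 10.25 in control, which gave −1.86 ± 0.31. Its 3 other probe sets differed by −0.66 to −1.44. Cd79b and Cd79a differed by −1.70 ± 0.43 and −0.80 ± 0.21. This list was chosen with results of these arrays known.

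Of 32 measured myeloid genes listed as bound by PU.1, 15 were lower and 17 higher, with a median of 0.04 (0.12 without control 2). Groups did not overlap for 11 higher and 7 lower genes, against 1883 and 1841 of all 12394. Unadjusted p in limma was under 0.05 for 8 of the myeloid genes, 5 higher and 3 lower (2.18% and 2.38% of all genes). The primary granule enzymes Mpo and Ctsg differed by 1.25 ± 0.15 and 0.99 ± 0.16. Mpo read 7.32 and 7.32 in Cre-GFP against 6.21 and 5.93. Jun, an AP-1 subunit and partner of PU.1, differed by −1.13 ± 0.28 (−0.70 without control 2). These listed genes lay on both sides of 0, and Spi1 overlapped between the groups. A link between them was not tested.

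**Figure D4:**
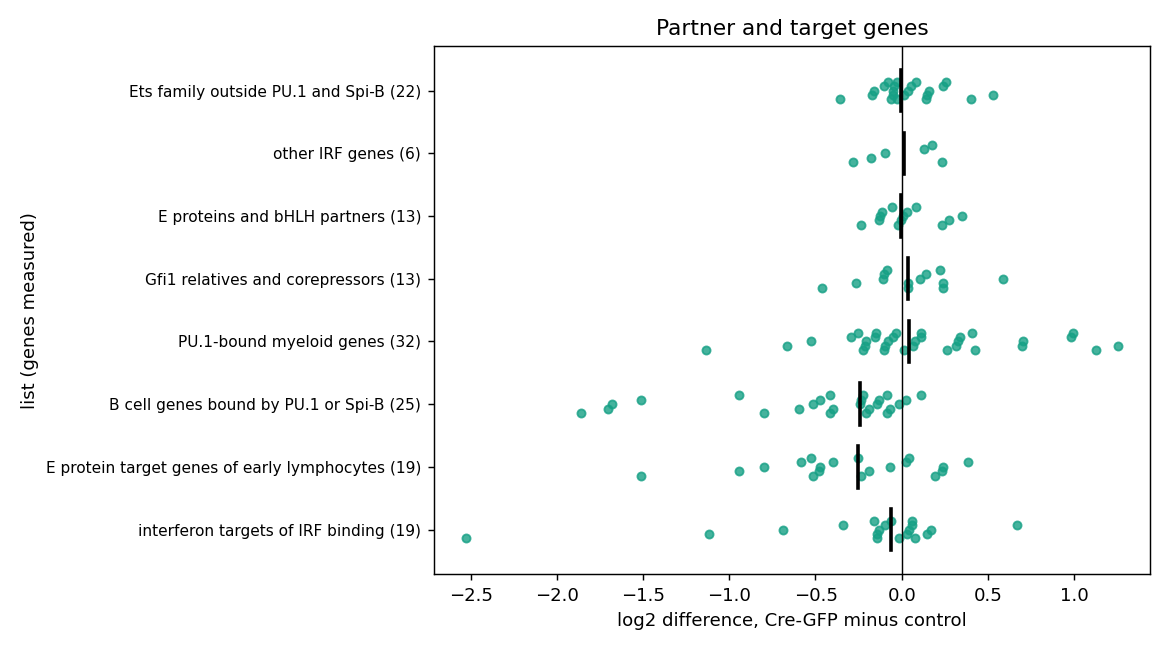
Each point is a gene's log2 difference, Cre-GFP minus control, in a list of partner or target genes, with the number of genes measured in brackets and the list median as a black bar. The B cell list (median −0.24) and the E protein target list (median −0.25) lie mostly below 0, and the other medians lie between −0.06 and 0.04. The 8 genes that these lists share are all lower.

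Of 19 measured E protein target genes of early lymphocytes, which include Gfi1 and share 8 measured genes with the B cell list, 13 were lower, and the median was −0.25 (−0.40 without the dimmest 40% of probe sets). All 8 shared genes were lower, so the 6 higher genes all lay outside that overlap. Groups did not overlap for 2 higher and 10 lower genes of this list, against 1883 and 1841 of all 12394. Ebf1, the B lineage determinant, differed by −0.51 ± 0.15 and Notch1 by −0.52 ± 0.18, beside Cd79a above. Of 19 interferon-induced genes, 11 were lower, with a median of −0.06 (0.01 without control 2). The GTPases Gbp3, Gbp2 and Iigp1 differed by −1.12 ± 0.18, −2.52 ± 0.47 and −0.69 ± 0.21. Iigp1 differed by −0.41 without control 2, and Gbp2 by −1.76. Without control 1 Gbp2 differed by −3.29 and passed over all probe sets (limma adjusted p = 0.0092), where the lone control array is assumed to vary like the 2 Cre-GFP arrays, while the 2 control arrays read 7.28 and 8.81. Bst2, an interferon-induced membrane protein named after its values were seen, was the 1 higher gene of this list with an unadjusted p under 0.05. It differed by 0.67 ± 0.27, or 0.27 without control 1 and 1.06 without control 2.

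Marker levels of several cell types stand beside these differences, and in bulk arrays fewer cells of a type cannot be told apart from less RNA per cell. All 13 measured B lineage markers were lower in Cre-GFP, of which 12 are also in the B cell list above, with a summed linear intensity of 30200 to 30510 in Cre-GFP and 36720 to 41600 in control. The surrogate light chain genes Igll1 and Vpreb1 stood at or above 13.28 in every array, so transcripts of the labelled lymphoid lineage were abundant in both groups. Of 12 monocyte and macrophage markers, 10 were higher in Cre-GFP, with sums of 2620 to 3260 against 1769 to 2472. Neutrophil marker sums were 3905 to 4548 against 1766 and 5519. Of 11 plasmacytoid dendritic markers 9 were higher, with sums of 2746 to 3404 against 2948 to 2954, and Siglech was not analysed here. RMA values have no true zero, and no marker is at 0. The part of these shifts in the lower Spib and Id3 was not tested.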

How the data were processed

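Total RNA (20 ng) was amplified with a NuGen Ovation kit and hybridized to Affymetrix arrays, per the labels' protocols. The authors deposited linear intensities of 22690 probe sets on 4 arrays, summarized with RMA per the submitters' processing notes (version not given in the sources used here). RMA normally equalizes arrays, which hides a change common to most genes. Median intensities were 85.1 to 87.7. Their log2 was analysed without further normalization.

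The platform annotation named 1 gene on 20393 probe sets, which were tested; 691 with several symbols and 1606 without any were not. The test was limma 3.58.1 under R 4.3.3 (lmFit, eBayes with intensity trend, two-sided, Benjamini-Hochberg over all 20393, threshold 0.05). It was also run on simulated data with normal noise and a spread set by intensity alone. Probe sets of the real arrays differ in spread at like intensity, so that run does not show how the test performs here. Errors after ± are limma's standard errors.

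The members and lists were chosen with earlier results of these data known. Named were all member probe sets, up to 3 genes per list with the smallest p, 5 nearest probe sets each for Spib and Spi1, and up to 2 markers per list; other names are marked. Scan dates and detection calls were not used, and 2 arrays per group limit the precision.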

Additional observations from a re-analysis of the deposited data

How the results depend on the processing

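Of 193 member differences recomputed under the alternatives, 183 kept their direction and none passed the adjusted threshold. No member probe set was called in any setting, and Spib, Id3, Gfi1 and the first 2 Id2 probe sets stayed lower in each. Direction turned for Irf5, Id1, 1 Id2 probe set, Irf4, Irf8 and Spi1. Averaging the probe sets of Irf5 gave −0.13. Leaving out single arrays gave −0.059 to 0.17 for Id1, −0.21 to 0.035 for the third Id2 probe set, −0.75 to 0.39 for Irf4, −0.46 to 0.26 and −0.80 to 0.22 for Irf8, and −0.19 to 0.13 for Spi1. Spib minus Spi1 lay between −3.003 and −1.47 in those settings. Over all probe sets 0 to 25 were called, from 2 to 5 member probe sets had an unadjusted p under 0.05, and 9 to 13 did not overlap, which 1 array in a group makes easier. The share of all probe sets that did not overlap was not computed with single arrays left out. The shares given earlier come from 2 arrays per group and are no background for these member counts. That holds for the 4.79% of all probe sets at an unadjusted p under 0.05 too. Whether 9 to 13 exceeds the background therefore cannot be said. The 2 to 5 were not set against a background from the same fits, so no excess is read from them. With the mean of a gene's probe sets, 4 of 9 members did not overlap, and the share over all genes was not computed there. With 1 probe set per gene, 5 of 9 members did not overlap, against 30% of all 12394 genes.

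With the replicate block, 0 probe sets were called and 1547 had an unadjusted p under 0.05, against 976 without it. Of the 14 member probe sets, 3 did with the block and 2 without it. With 1 probe set per gene 600 of 12394 did, and 604 of 12236 without the dimmest 40%. Deviations of same-numbered arrays correlated at 0.36 over probe sets, but nothing in the labels ties them. The block gave Irf4 −0.18 ± 0.11 and Gfi1 −0.58 ± 0.14, still not called. Of 465 values of 32 other named genes, 463 kept their direction. Leaving out single arrays gave −0.15 to 0.21 for Tcf4 and −0.60 to 0.13 for Tcf3. Of 117 list medians, 13 moved by more than the spread between arrays. The half-widths of the 95% intervals had a median of 0.37. These intervals are not adjusted over probe sets, so 0.37 is not a limit of detection. In the main fit even the Spib difference of −2.26 did not pass the adjusted threshold.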
